A study of Homo sapiens with 4 samples.

Results

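The peaks described here are the m6A peaks that carried the region label 5'UTR in the authors' table of differences between BEAS-2B cells with a METTL16 plasmid and BEAS-2B cells with an empty plasmid. All lines with that label were taken, which gave 489 of the 9466 listed peaks, on 460 genes. BEAS-2B is a bronchial epithelial line of human origin that was immortalised for culture. One arm carried the METTL16-overexpressing plasmid and the other the empty control plasmid, and both were otherwise labelled alike. Each arm had 1 input library and 1 library immunoprecipitated with an m6A antibody, so 4 libraries were made, without replicates and from 1 cell line. No difference given here therefore has a replicate check, and no test between the arms was possible. Of 6 epithelial genes looked up, KRT19, KRT7, EPCAM and CDH1 had 0 lines, as did the leukocyte and endothelial markers PTPRC and PECAM1. The keratins KRT8 and KRT18 were at 54.2 and 59.0 FPKM in the METTL16 plasmid input, against 46.1 and 59.6 FPKM in the empty plasmid input. The table has 0 lines for METTL16, so the labelled overexpression was not checked.

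N6-methyladenosine (m6A) is a methyl mark on adenosines of RNA. The complex of METTL3 and METTL14 places most of it on messenger RNA, within a short consensus that ends in A-C and 1 further base, and most of these sites lie near stop codons and in 3'UTRs. METTL16 is a separate methyltransferase known for methylating the U6 small nuclear RNA and the hairpins at the end of MAT2A mRNA, and it has also been described as a factor that helps translation initiation. The 5'UTR is the stretch between the cap and the start codon on which the ribosome is loaded, and m6A there has been linked to translation without the usual cap-binding factors. At the first transcribed adenosine beside the cap, the enzyme PCIF1 makes a related mark, m6Am, which m6A antibodies also bind. MeRIP-seq resolves a methylated stretch and not a single base.

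The sequence at the 5' end of these messages is shown first, because it is where the label places the peaks. Start windows from RefSeq (GRCh38.p14) were found for the genes of 403 of the 489 peaks. Of these peaks, 116, of any span, contained a whole stretch of 50 bases downstream of an annotated start of their gene, which was searched on the sense strand. Where several starts lay inside a peak, the one nearest its 5' edge was used. A window only had to lie between the outer edges of its peak, which can enclose introns. The consensus searched, known as DRACH, was A, G or T, then A or G, then A, then C, then A, C or T. It was found in 43.1% of these 50-base windows (Clopper-Pearson 95% interval 33.9 to 52.6), against 49.6% of all 35116 start windows in the table and 45.3% of 128 windows of start codon peaks. Among the 36 such peaks with a span of at most 1000 bases it was found in 36.1% (20.8 to 53.8), and the wider set of any span was added after these values were seen. Its reverse complement was found in 59.5% of the windows of any span. The windows below belong to genes named in the results. The first 2 come from peaks that were higher with the METTL16 plasmid and the next 2 from peaks that were lower with it, and the capitals mark the consensus.
TINF2, chr14:24242591-24242615, minus strand, 5′ to 3′: ctcgggctcgAGACAgcggcgacgt
TTC1, chr5:160009162-160009186, plus strand, 5′ to 3′: aagaaggtggAGACCggagaagctg
DAB2, chr5:39424940-39424964, minus strand, 5′ to 3′: catctgattaGAACCatatctctcg
TGIF1, chr18:3448448-3448472, plus strand, 5′ to 3′: gtccgggaagGAACTgtgctcccgg
The consensus stood in 12 of the 18 windows from differential peaks that were higher with the METTL16 plasmid (66.7%, 41.0 to 86.7) and in 14 of the 46 windows from differential peaks that were lower (30.4%, 17.7 to 45.8), and these intervals overlap. The reverse complement stood in 66.7% and 54.3% of the same windows. Peaks whose window held the consensus had a median m6A log2 fold change of -0.55 (50 peaks), and those without it -0.95 (66 peaks).

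GGACT, the most common form of the consensus in messenger RNA, was found in 0 of the 64 windows of differential 5'UTR peaks and in 5 of the 52 windows of 5'UTR peaks under 2-fold, against 4.90% of all start windows. The core of the methylated sequence in the MAT2A hairpins, TACAGAG, was found in 1 window, that of ACVR1, a receptor for bone morphogenetic proteins. This is 0.862% of the windows of 5'UTR peaks, against 0.262% of all start windows. The reverse complement of the core was found in the same share of the windows of 5'UTR peaks, and in 0.182% of all start windows. The ACVR1 window is shown because it holds this core, which the capitals mark. The bases around the core and a hairpin fold were not searched for, so whether it is a METTL16 site was not tested.
ACVR1, chr2:157838598-157838622, minus strand, 5′ to 3′: cacttaaacTACAGAGgagacagct
In the authors' deposited table the peak over this start stood at 2.53 on the log2 scale, where values above 0 are higher with the METTL16 plasmid. The peak spanned 41556 bases with introns included, so the window is a small part of it. The first transcribed base was an A in 42.2% of the windows of 5'UTR peaks, against 44.4% of all starts and 53.9% of the windows of start codon peaks. Mean GC content over the 50 bases was 60.2%, against 59.2% for all starts.

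The label was checked against RefSeq gene starts for the 479 peaks whose gene was found there. The 5' edge of 240 of them (50.1%) lay within 1000 bases of the gene start, against 61.1% of start codon peaks and 0.726% of 3'UTR peaks. The gene start itself lay inside 79 peaks (16.5%), and 202 peaks (42.2%) began more than 1000 bases downstream of it. A further 28 peaks lay wholly upstream of the RefSeq gene start. The median genomic span was 1263 bases and ran from 101 to 102696 bases, with introns counted. The gene start is the outermost one, and a gene can have others. With any annotated start counted, 127 of 403 peaks (31.5%) contained one, and 235 (58.3%) had their 5' edge within 1000 bases of one. Thus the label covers peaks over the gene start and peaks that begin downstream of it. Later 5' exons were not told apart from other starts.

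**Figure D1:**
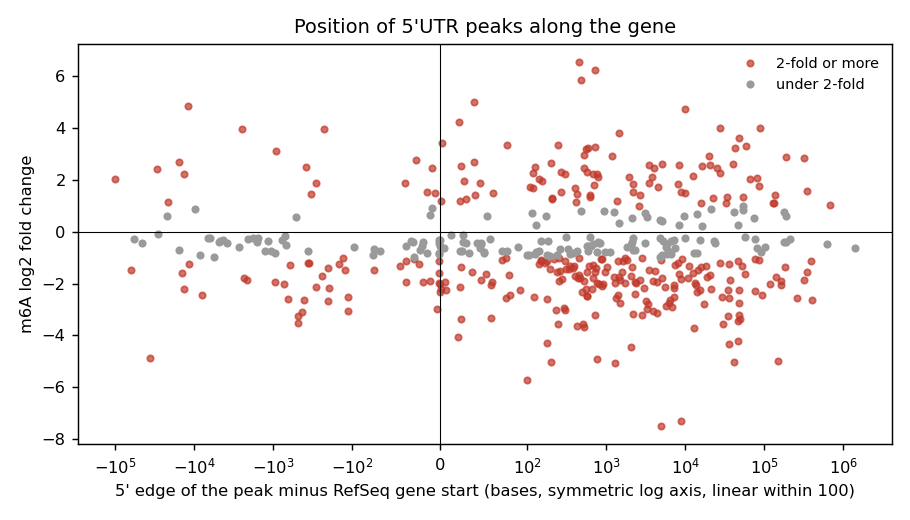
m6A log2 fold change (METTL16 plasmid over empty plasmid) of each of the 479 placed 5'UTR peaks, against the distance in bases from the RefSeq gene start to the 5' edge of the peak, on a symmetric log axis. Red points are at 2-fold or more, and both signs occur on either side of the start.

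A peak was called differential by the authors' mark, which equals a p-value below 0.05 and a change of at least 2-fold. All listed peaks meet that p-value, so the shares below leave out any peak that did not. Over the whole table, 43.7% of peaks were differential. Of the 5'UTR peaks, 331 of 489 (67.7%, 63.3 to 71.8) were differential, against 42.3% of the 8977 other peaks. This was above the background of the table. Among the other main labels, intronic and noncoding exon peaks had larger shares, at 85.7% and 70.4%. Start codon peaks, the nearest neighbours along the message, stood at 38.0%. These intervals reflect how many peaks were counted, and peaks are not replicates of the arms.

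Lower values were more frequent than higher ones. The differential peaks comprised 108 that were higher with the METTL16 plasmid (22.1% of 5'UTR peaks, against 16.5% of all listed peaks) and 223 that were lower (45.6%, against 27.2% of all listed peaks). Lower peaks made up 67.4% of the differential 5'UTR peaks (62.0 to 72.4), against 61.9% of the other differential peaks. After all log2 fold changes were centred on the median of all listed peaks, which is -0.38, the 5'UTR split was 125 higher and 170 lower (57.6% lower). Of the other differential peaks, 48.5% were then lower. Centred within 10 equal groups of peaks by input level, the 5'UTR split was 122 higher and 161 lower (56.9% lower). With that centring, 43.1% of the other differential peaks were lower.

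The median log2 fold change of 5'UTR peaks in the authors' deposited table was -0.81 (order-statistic 95% interval -1.0 to -0.72), against -0.37 over the other peaks and -0.44 over start codon peaks. Intronic peaks had a lower median, at -0.98, and noncoding exon peaks stood at -0.73. The quartiles of 5'UTR peaks were -1.86 and 0.68, and their range was -7.50 to 6.55. The share of peaks below 0 was 71.4% for the 5'UTR label and 71.5% for the others, which is nearly the same. The median absolute log2 fold change was 1.48, against 0.79 for the other peaks. Intronic and noncoding exon peaks had larger ones, at 1.98 and 1.70. At 4-fold or more, 61 of the 489 5'UTR peaks were higher and 101 lower, against 682 and 1104 of the 8977 other peaks. At 16-fold or more, 7 were higher and 14 lower, against 128 and 186 of the other peaks.

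**Figure D2:**
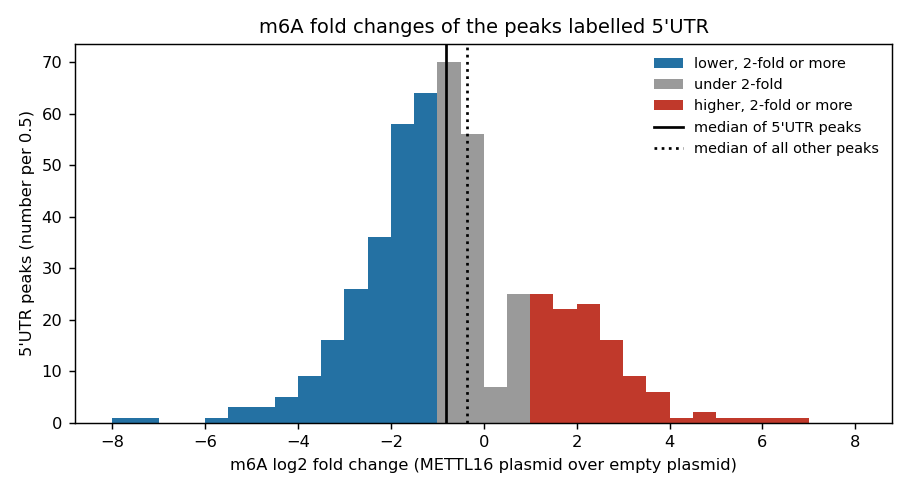
Number of 5'UTR peaks per 0.5 of m6A log2 fold change (METTL16 plasmid over empty plasmid), coloured by whether the peak reached 2-fold. The 223 lower peaks outnumber the 108 higher ones, and the median of -0.81 (solid line) lies below that of the other peaks at -0.37 (dotted line).

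The adjusted p-values of the authors' deposited table gave another order. An adjusted p-value below 0.05 was held by 85 5'UTR peaks (17.4%), 15 of them higher and 70 lower, against 25.6% of all listed peaks. Of these, 47 were also at 2-fold or more, 12 higher and 35 lower. The adjusted p-value was empty for 74 5'UTR peaks (15.1%), each of them at 2-fold or more. The 5'UTR label therefore held a larger share of values at 2-fold or more than the rest of the table. Its share with an adjusted p-value below 0.05 was smaller.

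Large values are more frequent on weakly expressed genes throughout the table, and 5'UTR peaks were therefore set against other labels at like input level. The median mean input level was 5.69 FPKM for 5'UTR peaks and 5.53 FPKM for the others. All listed peaks were put into 10 equal groups by input level. The differential share of 5'UTR peaks was larger than that of the other peaks in 8 of 10 groups and larger than that of start codon peaks in 9 of 10. It was larger than that of intronic peaks in 0 of 10. In the highest group, above 30.1 FPKM, 40.4% of the 47 5'UTR peaks were differential, against 7.99% of other peaks, 11.3% of start codon peaks and 1.19% of stop codon peaks. In the lowest group the values were 75% and 80.6% for 5'UTR peaks and other peaks. The median of 5'UTR peaks was below that of the other peaks in 10 of 10 groups.

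**Figure D3:**
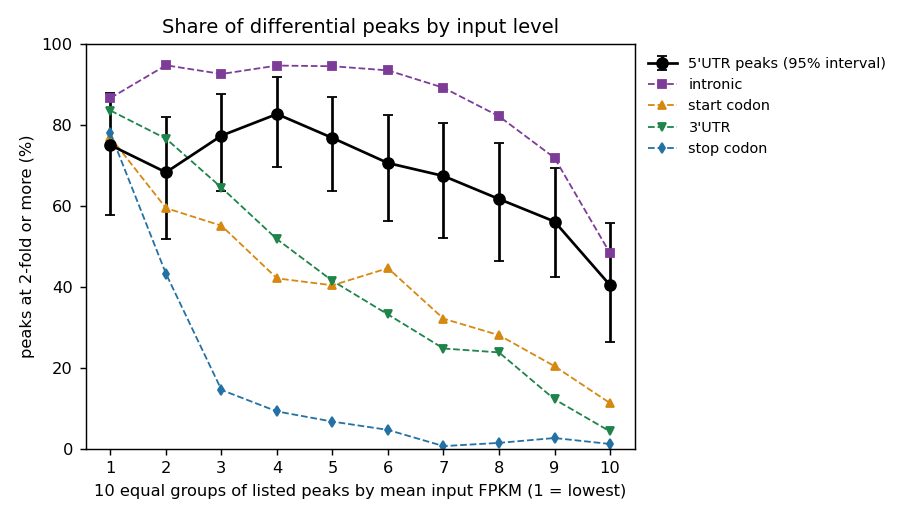
Share of listed peaks at 2-fold or more (percent) in 10 equal groups of peaks by mean input FPKM, for 5'UTR peaks with Clopper-Pearson 95% intervals (black) and for 4 other labels. The share of 5'UTR peaks fell to 40.4% in the highest group, where start codon peaks were at 11.3% and stop codon peaks at 1.19%.

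Short peaks held the largest shares. Of the 103 5'UTR peaks with a span of 101 to 250 bases, 90.3% were differential (35 higher, 58 lower), against 75% of other peaks of that span. Of the 30 peaks at the shortest listed span of 101 bases, 29 were differential, 10 higher and 19 lower. Most peaks of that span were differential whatever their label, 377 of the 458 listed. Between 1001 and 5000 bases the share was 50.0% of 136 peaks, against 20.5%, and above 20000 bases it was 52.6% of 57 peaks, against 24.6%. The share was larger for the 5'UTR label in each of these span classes. The number of reads behind a peak was not analysed here, and its part in these shares was not tested.

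Differential shares differed with the position along the gene. Among the 79 peaks that contained the gene start, 53.2% were differential (41.6 to 64.5), with 9 higher and 33 lower. Among the 202 that began more than 1000 bases downstream, 72.8% were differential (66.1 to 78.8), with 46 higher and 101 lower. Their median was -1.0 (-1.28 to -0.60), against -0.75 (-1.12 to -0.55) for those over the start, and these intervals overlap. Of the 170 that began within 1000 bases downstream, 70% were differential (62.5 to 76.8), 44 higher and 75 lower, with a median of -0.80. The 28 peaks wholly upstream had 8 higher and 9 lower. The median span was 1061 bases for peaks over the start and 1665 bases for those beginning far downstream.

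The highest 5'UTR values belonged to genes of varied function. The peak of POLR3C, a subunit of RNA polymerase III, had the highest value in the authors' deposited table, 6.55 on the log2 scale. It lay at chr1:145824652-145824752 (hg38), and the input level of the gene was 5.65 FPKM with the METTL16 plasmid, against 5.39 FPKM with the empty plasmid. Next came TRAPPC2B, at 6.24, but this gene is a near-identical copy of the trafficking gene TRAPPC2, and reads of the copies cannot be told apart with certainty. TRAFD1, which restrains innate immune signalling, stood at 5.87, while its 3'UTR peak had a value of -0.36.

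The start of TINF2, whose protein TIN2 is a part of the shelterin complex at telomeres, was covered by a peak at 5.0 (log2) in the authors' deposited table. It contained the window printed above and spanned 176 bases (chr14:24242460-24242635). Input levels of TINF2 were 7.98 FPKM with the METTL16 plasmid and 8.03 FPKM with the empty plasmid. The deubiquitinase OTUB1 had a value of 4.87 and was the only one of the 12 highest with an adjusted p-value below 0.05 in the authors' deposited table (0.0015), and for the other 11 it was empty. EIF4G3, a scaffold of the cap-binding complex of translation initiation, had 4.24. The remaining 6 of the 12 highest were R3HDM2 (4.0), the sorting nexin SNX14 (3.95), the DNA repair gene BRCA1 (3.64), TJAP1 (3.44), the vesicle coat gene SEC23B (3.36) and TIGD6 (3.33). SNX14 was higher at its 3'UTR peak too, at 1.49.

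The lowest value belonged to NBPF10, at -7.50 with an adjusted p-value of 3.21e-09 in the authors' deposited table. NBPF10 is 1 of a family of near-identical genes, so this value is uncertain, and its stop codon peak stood at 0.34. The receptor gene S1PR3, for the lipid sphingosine-1-phosphate, carried 2 5'UTR peaks of opposite direction. In the authors' deposited table the one at chr9:88999628-88999753 stood at -7.33 (log2) and the one at chr9:88995988-88996828 at 2.63. Its input levels were 3.17 FPKM with the METTL16 plasmid and 3.11 FPKM with the empty plasmid.

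Among the other low values were SMIM13 (-5.74), the mitochondrial arginyl-tRNA synthetase RARS2 (-5.05), the zinc finger factor GLIS2 (-5.02) and the corepressor CBFA2T2 (-4.98), all from the authors' deposited table. CBFA2T2 was lower at its 3'UTR peak as well, at -1.38, and had -0.56 at its stop codon peak. CTSB, the lysosomal protease cathepsin B, combined a large value with a high level. Its 5'UTR peak stood at -4.92 with an adjusted p-value of 0.000664 in the authors' deposited table, at an input of 44.8 FPKM with the METTL16 plasmid and 45.7 FPKM with the empty plasmid, while its 3'UTR peak had -0.18.

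The endocytic adaptor DAB2 had -4.87 at a peak whose outer edges, chr5:39423802-39460871, enclose the start printed above. That window is a small part of the peak. The protein methyltransferase METTL22 had -4.44 and the RNA helicase DDX42 had -4.30. GCLC, the catalytic subunit of the first enzyme of glutathione synthesis, had -4.35 with an adjusted p-value of 0.0153 in the authors' deposited table. ECE1, which activates endothelin, had 2 adjoining 5'UTR peaks at -4.22 and -3.68, against -0.31 at its stop codon peak and -0.44 at its 3'UTR peak. The adjusted p-value was empty for the other 9 of the 12 lowest. In all 24 of these genes the input levels of the arms lay within 1.5-fold of each other, as the paired points of the plot show.

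**Figure D4:**
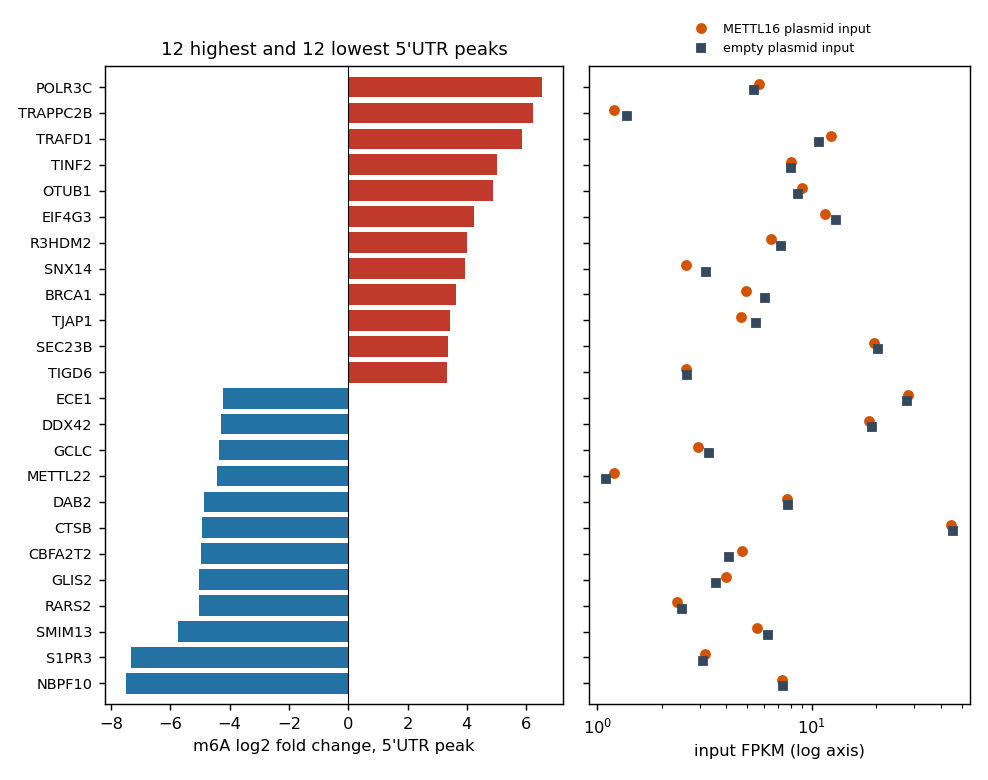
Left, m6A log2 fold change (METTL16 plasmid over empty plasmid) of the 12 highest and 12 lowest differential 5'UTR peaks on genes with at least 1 FPKM in both inputs, 1 peak per gene. Right, input FPKM of the same genes on a log axis, where both arms lie close together for every gene while the m6A values run from 6.55 for POLR3C to -7.50 for NBPF10.

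The peaks with the smallest p-values were mostly small in size. RRBP1, a ribosome receptor of the endoplasmic reticulum, had the smallest, 2.23e-17 in the authors' deposited table, and its log2 fold change was -0.38. The proteasome gene regulator NFE2L1 followed, also at -0.38, and its stop codon peak had -0.22. NR2F2 (-0.35), the secreted glycoprotein STC2 (-0.35) and the centrosomal CEP170 (-0.21) were likewise under 2-fold. Between them and the extremes lay LIME1 (-0.74) and the ribosome biogenesis factor IMP3 (-0.88).

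Of the 10 genes with the smallest p-values, 3 had a differential peak, namely NBPF10, STAT6 and METTL3, and each was lower. STAT6, the factor that answers interleukin 4 and interleukin 13, had -1.31 at its 5'UTR peak and -0.26 at its 3'UTR peak in the authors' deposited table. METTL3, the catalytic subunit of the main m6A methyltransferase, had -1.28 with an adjusted p-value of 0.000627 in the authors' deposited table, and its peak lay at chr14:21503569-21503994. Its start codon peak, at chr14:21510813-21511331, stood at -1.16, at input levels of 5.53 FPKM with the METTL16 plasmid and 5.57 FPKM with the empty plasmid. METTL3 is on the minus strand, so its peak labelled 5'UTR lies downstream of its start codon peak. Which transcript the label refers to was not analysed. Centred on the median of all listed peaks, STAT6 and METTL3 moved to -0.93 and -0.90, under 2-fold. MAT2A, the known METTL16 target, had 2 listed peaks, and 0 of them carried the 5'UTR label.

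Peaks labelled for both ends could be compared within a gene that also had a stop codon or 3'UTR peak, which held for 189 genes. They were paired by gene, and whether they belong to the same transcript was not checked. In MYLK, on the minus strand, the 3'UTR peak used (chr3:123689045-123700961) lies upstream of the 5'UTR peak (chr3:123621179-123621654). In ATM the 3'UTR peak used (chr11:108231557-108236006) lies between the 5'UTR peak (chr11:108225218-108225443) and an intronic peak (chr11:108242331-108242856). In DCP2 the 3'UTR peak used (chr5:112981156-112985966) directly follows the 5'UTR peak (chr5:112976951-112981131). The 3'UTR label thus does not always mark the far end of a gene, and such pairs were not counted. Where an end had several listed peaks, the values are those of the peak whose p-value was lowest. The median was -0.73 at the 5'UTR peaks and -0.33 at the other end, and the median of the differences, 5'UTR minus other end, was -0.24 (-0.45 to -0.02). The 5'UTR value was the lower one in 110 genes (58.2%, 50.8 to 65.3). It was the larger one in absolute size in 147 genes (77.8%), and this peak was differential at the 5'UTR in 116 genes (61.4%) and at the other end in 49 (25.9%). With every listed peak counted, 118 genes had a differential 5'UTR peak (62.4%), against 56 with one at the other end (29.6%), and the largest absolute value lay at the 5'UTR in 140 genes (74.1%). Both ends were below 0 in 114 genes and both above 0 in 16. The 5'UTR was below and the other end above 0 in 22, and the reverse held in 37. Across these genes the values of the 2 ends had a Spearman correlation of 0.13, as a description of 189 points that share their libraries.

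**Figure D5:**
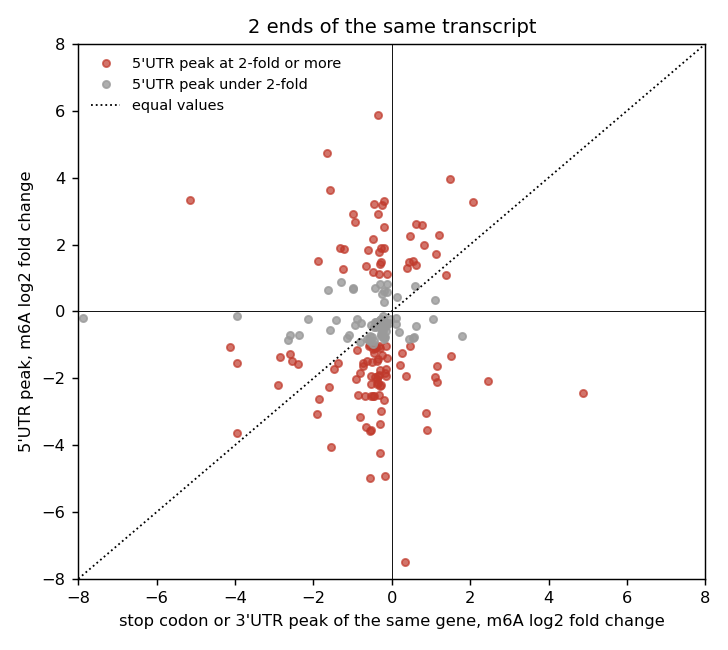
m6A log2 fold change of the 5'UTR peak (vertical) against that of the stop codon or 3'UTR peak of the same gene (horizontal), METTL16 plasmid over empty plasmid, for 189 genes with 1 peak per end, that of the lowest p-value. Points spread further along the vertical axis than along the horizontal one, and the absolute value is larger at the 5'UTR in 147 genes.

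Against stop codon peaks alone (51 genes), the 5'UTR value was lower in 38 (74.5%, 60.4 to 85.7), with a median difference of -0.43 (-0.75 to -0.20). Against 3'UTR peaks alone (149 genes) it was lower in 82 (55.0%, 46.7 to 63.2), and against start codon peaks in 7 of 18. Against exonic peaks (41 genes) it was lower in 20 (48.8%), with a median difference of 0.02, and larger in absolute size in 30. Against intronic peaks (36 genes) it was lower in 20 (55.6%), but larger in absolute size in only 11 (30.6%). In these 36 genes 61.1% of the 5'UTR peaks were differential, against 83.3% of the intronic ones. Over all 242 genes with any further label, 165 (68.2%, 61.9 to 74.0) shared the sign of the 5'UTR peak. After centring on the median of all listed peaks the shared sign was found in 56.6%. The 218 genes listed with 5'UTR peaks only had a differential share of 75.3% and a median of -1.10, and the 5'UTR peaks of the 242 other genes 60.9% and -0.72.

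Differential peaks of opposite direction within a gene were found in 30 of the 66 genes that had a differential 5'UTR peak and another differential peak. In 14 genes the 5'UTR was lower and the other peak higher, and in 16 the reverse held. TIGD6, derived from a DNA transposon, had 3.33 at its 5'UTR and -5.16 at a 3'UTR peak in the authors' deposited table. AGO3, an Argonaute protein of small RNA silencing, had 2.24 at its 5'UTR and -3.86 and 0.45 at 3'UTR peaks, and BRCA1 had 3.64 at its 5'UTR and -1.56 at its 3'UTR peak. The order was reversed in MYLK, the myosin light chain kinase, with -2.54 at the 5'UTR and 2.46 at a 3'UTR peak. Its other 3'UTR peaks had -2.04, also differential, and -0.69, and both lie upstream of the 5'UTR peak.

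The other peak was intronic in FOXP1, a forkhead factor (2.10 at the 5'UTR, -3.67 in the intron), and in TTC1 (2.77 and -2.67), both from the authors' deposited table. The leucyl-tRNA synthetase LARS1 had -3.04 at its 5'UTR and 1 intronic peak at 2.39, while its other 3 intronic peaks, at -1.57, -1.52 and -1.78, were lower like the 5'UTR peak. CCDC82 had 1.52 at the 5'UTR and -3.35, -2.89 and -1.89 at its 3'UTR peaks. GNAS, which encodes the stimulatory G protein alpha subunit, had -1.33 at its 5'UTR and 1.52, 1.51 and 0.12 at 3'UTR peaks. Centred on the median of all listed peaks, its 5'UTR value was -0.95, under 2-fold. Same-direction pairs were found in 44 of the 66 genes, both lower in 31 and both higher in 13, and a gene with several peaks can count in both sets.

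Several 5'UTR peaks on 1 gene usually had the same sign. Of 28 such genes, 16 had all values below 0, 8 had all above 0 and 4 had both signs. HOXB3, a homeobox gene, was the one gene with 3, at -1.87, -1.37 and -1.59 in the authors' deposited table. CMTR2, which methylates the ribose of the second nucleotide after the cap, had -2.03 and -2.50. ACVR1 had 3.30 and 2.53, against -1.16 at a 3'UTR peak and -0.20 at its stop codon peak. ARF4, a small G protein of the Golgi, had -0.88 and -2.60, while the chromatin remodeller CHD9 had -0.26 and 0.60.

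Among signalling genes, 8 5'UTR peaks fell in a list of 65 kinases, phosphatases and G proteins, and 6 were differential (75%, against 67.7% of all 5'UTR peaks), 0 higher and 6 lower, with GNAS under 2-fold once values were centred on the median of all listed peaks. Their median was -1.50 in the authors' deposited table, against -0.81 for all 5'UTR peaks and -0.32 for all 78 listed peaks of the list. CDC42, a small G protein of the cytoskeleton, had -2.23, with -0.29 at its 3'UTR peak. PPP1CB, a catalytic subunit of protein phosphatase 1, had 2 peaks at -1.54 and -1.45, and GSK3A had -0.24. DYRK1A had 1 lower peak at -1.54 and another at 0.99. Of 4 peaks on receptors and ligands, S1PR3 supplied the 2 differential ones, VEGFA had -0.44 and SEMA3C 0.59.

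Of 5 peaks on genes of p53, the cell cycle and DNA repair, 3 were differential (60%, against 67.7% of all 5'UTR peaks), 3 higher and 0 lower. Their median was 1.75 in the authors' deposited table, against -0.41 for all 58 listed peaks of the list. ATM, the kinase that senses DNA breaks, had 1.86 at its 5'UTR, and values of both signs elsewhere. These were -1.23, -0.44 and 1.26 at 3'UTR peaks and -2.35 at an intronic one. The 3'UTR peak at -1.23 lies upstream of the intronic peak and of the other 3'UTR peaks. SESN1, a p53 target, had 1.75 and BRCA1 3.64, while CDK4 had -0.83 and CDKN2A -0.81. The remaining lists held fewer: 3 transcription factor peaks were all differential, with SMAD3 at 1.12, FOXO3 at -1.12 and TGIF1 at -1.25. Centred on the median of all listed peaks, FOXO3 and TGIF1 moved to -0.73 and -0.86, under 2-fold.

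Among ubiquitin-conjugating and ligase genes, UBE2A was higher at 2.03, UBE4A was lower at -1.76 and UBE2D3 had -0.44, all from the authors' deposited table. Of 3 translation peaks EIF4G3 was differential, and EEF1D had -0.31 and EIF5 0.75. SOD2, the mitochondrial superoxide dismutase, was the one peak of the stress list, at -1.06, or -0.68 when centred in the same way. In the interferon list MX1 had -3.25 and -0.34 at its 2 5'UTR peaks and IFI44L had 0.27. The lists are small, and a share of so few peaks cannot be told from the 67.7% of all 5'UTR peaks or the 43.7% of all listed peaks.

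Input levels of the genes with 5'UTR peaks were nearly alike in both arms. For the 410 genes with at least 1 FPKM in either input, the median change of log2(FPKM + 1), METTL16 plasmid minus empty plasmid, was -0.02 (-0.03 to -0.01), as for all other genes at -0.02. A 2-fold change was reached by 2 of the 410, against 0.293% of all 5467 genes. PTP4A1, a tyrosine phosphatase, was at 26.6 FPKM with the METTL16 plasmid and 58.8 FPKM with the empty plasmid, and its 5'UTR peak was lower by the authors' mark (-1.63 in the authors' deposited table). The other, higher one has no symbol in the table and stood at 48.0 FPKM with the METTL16 plasmid and 3.03 FPKM with the empty plasmid. Both lie on the same strand of 1 locus. The 5'UTR peak of the unnamed gene is at chr6:63532339-63572679, its stop codon peak is at chr6:63573424-63579015, and the PTP4A1 peak at chr6:63572704-63573299 lies between them. How reads were divided between these neighbours was not tested, so their opposite input changes cannot be told apart from a different division of the same reads. Over the 410 genes the m6A and input changes had a Spearman correlation of -0.02, as a description across genes.

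Within 1.5-fold lay 99.0% of the 410 genes. Of the further named genes with lower input, CDK11A stood at 2.20 FPKM with the METTL16 plasmid and 3.93 FPKM with the empty plasmid, but it shares reads with CDK11B. SOD2 and the ribosomal S6 kinase RPS6KA2 stood at 14.6 and 2.02 FPKM with the METTL16 plasmid, against 19.7 and 2.94 FPKM with the empty plasmid. Of those with higher input, the antiviral zinc finger protein ZC3HAV1 was at 49.2 FPKM with the METTL16 plasmid and 35.8 FPKM with the empty plasmid, and its 5'UTR peak was lower, at -1.04 with an adjusted p-value of 0.00251 in the authors' deposited table, or -0.66 when centred on the median of all listed peaks. ANKHD1, GCA and ZNF350 had 17.8, 1.71 and 3.28 FPKM with the METTL16 plasmid, against 12.8, 1.09 and 2.35 FPKM with the empty plasmid.

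Some 5'UTR peaks overlapped a listed peak of another gene. This held for 31 peaks (6.34%), 30 of them on the opposite strand, and 13 of these 30 overlapped an exon peak of a noncoding RNA. Opposite-strand partners had the same sign throughout in 28 of the 30. Shared signs are frequent in any case, with 71.4% of 5'UTR peaks and 71.5% of other peaks below 0. The 30 are also not all separate cases. BTD and HACL1 count each other, and the STS peaks share a partner, as do the NR2F1 peaks. BTD and HACL1, which start head to head, had -1.90 and -2.13 at their 5'UTR peaks in the authors' deposited table. STS had -4.05, with -2.0 at the overlapping peak of PUDP, and GPR107 had -3.54, with -5.94 at a noncoding exon peak. POLR3G, another subunit of RNA polymerase III, was with NAA38 an exception, at -1.85 with 6.04 at a 3'UTR peak of MBLAC2. Whether reads were counted by strand is not given in the sources used here, so the values of such pairs cannot be told apart with certainty.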

How the data were processed

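Per the labels' protocols, RNA of BEAS-2B cells was depleted of ribosomal RNA, fragmented, and sequenced paired-end after dUTP strand marking, as input and after m6A immunoprecipitation, with 1 library of each per arm. The submitters' processing notes name fastp 0.19.4 and build hg38. For aligner, peak caller and annotation version, nothing is given in the sources used here. The authors deposited, for each peak, a log2 fold change of m6A (METTL16 plasmid over empty plasmid), a p-value, an adjusted p-value and the peak length in bases, introns included. They also deposited gene levels as FPKM for both inputs, with their own log2 change, p-value and q-value for it. Those p-values compare single libraries, not conditions. The sequencing depth is unknown, since FPKM was used without counts.

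All lines labelled 5'UTR were taken, and counts, shares and medians were computed with Python 3.11.15, pandas 2.3.3, numpy 2.4.6 and scipy 1.17.1. Shares have Clopper-Pearson and medians order-statistic 95% intervals, which were checked on simulated data. Input changes used log2(FPKM + 1) where either input reached 1 FPKM, which understates changes of low genes. Motifs were searched in RefSeq start windows (GRCh38.p14), because no genome of the build was used here, and the peaks' own sequences were not analysed. The members and gene lists were chosen with earlier results of these data known. Named genes have a symbol and at least 1 FPKM in both inputs. They are the 12 highest and 12 lowest differential peaks, the 10 smallest p-values, the 8 largest opposite pairs, the 6 genes with most 5'UTR peaks, 4 genes per direction of input change and up to 4 per list. MAT2A, METTL16 and the genes in the paragraph on overlaps, with the marker genes, DYRK1A and SESN1, were named besides, after their values were seen. A few genes chosen this way are not reported here. Alternatives changed the p-value, adjusted p-value, fold, centring, input level, span, copies, peaks per gene, pseudocount, motif windows and start used.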

Additional observations from a re-analysis of the deposited data

How the results depend on the processing

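With 1 library per arm, no replicate could be left out, and agreement between settings is no replicate check. The 5'UTR label kept a larger differential share than the other peaks at every p-value, centring, input, span, copy and peaks-per-gene setting tried. A p-value below 0.01 left 121 differential 5'UTR peaks, 32 higher and 89 lower (24.7% of all and 73.6% lower, against 17.1% of other peaks). Below 0.001 there were 29, with 3 higher and 26 lower (5.93% and 89.7%, against 4.50% of other peaks). An adjusted p-value below 0.05 left 47, with 12 higher and 35 lower (9.61% and 74.5%, against 7.74% of other peaks). A 4-fold limit left 162 of 489, with 61 higher and 101 lower, against 1786 of the 8977 other peaks. At least 5 FPKM in both inputs left 157, with 55 higher and 102 lower (60.4%, median -0.65, against 22.6% and -0.28 for other peaks). Spans of at most 1000 bases left 184, with 58 higher and 126 lower (84.4%, median -1.26). Spans of at most 500 bases left 145, with 48 higher and 97 lower (88.4%, median -1.36). Other peaks of these spans were at 59.2% (median -0.57) and 67.7% (median -0.68). The 5'UTR counts fall because fewer peaks are kept, and the cause of the moved shares was not tested. Centring on all peaks gave a 5'UTR share of 60.3%, of which 57.6% lower, and a median of -0.43. Centring within 10 groups by input level gave 58.2%, 56.9% and -0.42. The other peaks were at 41.4%, 48.5% and 0.01 with the first centring and at 37.3%, 43.1% and 0.01 with the second. Of the 73 named peaks, 9 fell under 2-fold and 8 others changed sign, none of them differential, under centring on all peaks, and 7 and 4 did so within the 10 groups. Counting every listed peak of a gene at both ends, chosen after seeing the data, changed no direction. A shared sign within the gene moved to 56.6% when centred and to 60.4% among differential peaks only. In windows of peaks of at most 1000 bases, GGACT moved from 2.78% to 0% with differential peaks only and to 0% at a span of at most 500 bases. DRACH was in 36.1% of these 36 windows, and in 43.1% at any span, a setting chosen after seeing the data. Counting any annotated start in place of the gene start moved the peaks with a start inside to 31.5%. The unknown depth, the absent levels of the immunoprecipitates and the missing replicates limit all of these values.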
